A study of Mus musculus with 12 samples.

Results

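Iron and manganese handling was followed through 10 genes in RNA of T cell preparations enriched from spleen. These preparations also held RNA of markers of other cell types, given below. The 10 genes were Tfrc, Tfr2, Steap3, Slc11a2, Slc25a37, Fth1, Ftl1, Slc40a1, Slc30a10 and Ireb2. They were picked by name, with earlier results of these data known, out of the 49315 gene identifiers of an RNASeq count table. All 10 were measured in all 12 libraries. The study asked how deletion of the microRNA miR-214 alters the response of T cells to angiotensin II (Ang II), a peptide hormone that raises blood pressure. The 4 groups were wild-type (WT) mice given sham (vehicle) infusion, WT mice given Ang II, miR-214-/- mice given sham infusion and miR-214-/- mice given Ang II, with 3 mice per group and 1 library per mouse. The mice were males of 12 weeks, and osmotic minipumps delivered Ang II for 14 days at a daily dose of 490 ng/kg. The deletion was present in all cells of the miR-214-/- animals and not in T cells alone, and the T cells were enriched from spleen by magnetic removal of other cells.

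Cells take up iron as the ferric ion bound to transferrin, through transferrin receptors that are drawn into endosomes. There the iron is reduced, carried into the cytosol, and then used in mitochondria for haem and iron-sulphur clusters, stored in ferritin or exported through ferroportin. Proteins that bind iron-responsive elements, short hairpins in the untranslated regions (UTRs) of messenger RNAs, adjust this system to the iron supply, and dividing cells and red-cell precursors are known for a high demand for iron.

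The letters of an iron-responsive element were searched in the GENCODE transcripts of GRCm38 to show which of the 10 messages hold these letters. The letters were a C, any 5 bases, CAGTG, any base, and 5 bases that can pair with the first 5, read on the transcript strand. Each site is given 5′ to 3′ with its flanks, and the capitals mark the unpaired C and the loop letters CAGTG.
Fth1 5′ UTR, chr19:9982733-9982759, plus strand: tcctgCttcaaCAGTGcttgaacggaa
Ftl1 5′ UTR, chr7:45459780-45459806, minus strand: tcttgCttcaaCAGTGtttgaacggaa
Slc40a1 5′ UTR, chr1:45925466-45925492, minus strand: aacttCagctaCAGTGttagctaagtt
Tfrc 3′ UTR site 1, chr16:32631220-32631246, plus strand: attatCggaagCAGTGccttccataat
Tfrc 3′ UTR site 2, chr16:32631599-32631625, plus strand: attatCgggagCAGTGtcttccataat
Tfrc 3′ UTR site 3, chr16:32631664-32631690, plus strand: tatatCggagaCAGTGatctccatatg
Tfrc 3′ UTR site 4, chr16:32631711-32631737, plus strand: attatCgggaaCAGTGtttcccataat

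These letters were found in the 5′ UTR of 31 of 20916 genes (0.148%) and in the 3′ UTR of 129 of 21024 genes (0.614%). The storage genes Fth1 and Ftl1 and the exporter Slc40a1 carried 1 site each in the 5′ UTR, the place where binding is known to block translation. Tfrc carried 4 sites in the 3′ UTR, the place where binding is known to keep the message from decay. The other 6 genes had no match to these letters in their UTRs, and the letters describe a sequence and not a measured binding. The search required all 5 bases to pair, so it would miss a hairpin with an unpaired base among them. A gene without a match, Slc11a2 included, may therefore still carry an element.

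The deleted microRNA, miR-214-3p, lies on chr1:162223438-162223459, plus strand (RefSeq, GRCm38.p6), and is shown because its loss defines the miR-214-/- groups, with its seed, bases 2 to 8, in capitals.
miR-214-3p: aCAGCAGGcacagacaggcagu

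The complement of this seed, CCTGCTG, was present in the 3′ UTR of 4 of the 10 genes, at 1 place each in Steap3 and Slc25a37 and at 2 places each in Slc11a2 and Slc30a10. It was also present in 4257 of 21024 genes (20.2%), and no binding was measured.

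Total counts per library ran from 21126874 to 29605988. The Mir214 gene held 0 counts in every library, WT included, which allows up to 3 counts in each, so these libraries gave no check of the deletion. T cell markers were all detected, with a summed level of 4810 to 5550 CPM (counts scaled to a common library size) in WT sham and 3230 to 3910 CPM in WT Ang II. In miR-214-/- this sum was 4420 to 5110 CPM after sham and 3680 to 5030 CPM after Ang II, lowest in Ang II replicate 1. Levels below are in CPM after scaling of library sizes, and libraries are given in the order of replicates 1, 2 and 3. Calls were made with edgeR's quasi-likelihood test and required a log2 fold change above 1 or below -1 together with an adjusted p below 0.05, with adjustment over all genes tested. Because the libraries came from bulk RNA, a change in the number of cells of a type and a change in RNA per cell cannot be told apart.

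In WT mice, Ang II was accompanied by higher levels of 5 of the 10 genes, the transferrin receptors Tfrc and Tfr2, the endosomal ferrireductase Steap3, the mitochondrial iron importer Slc25a37 and the manganese exporter Slc30a10. None of the 10 was called lower. Over all 16012 genes tested, 7.01% were called higher and 0.294% lower. At an adjusted p under 0.05 without a limit on the fold change, 6 of the 10 were higher, Fth1 being the sixth, against 11.7% of all genes. The median log2 fold change of the 10 was 1.04, and that of all genes was -0.02. In 7 of the 10, all 3 WT Ang II libraries lay above all 3 WT sham libraries, which held for 19.1% of all genes tested. The 10 were chosen with earlier results of these data known. These contrasts with all genes, and those below, therefore describe the list and do not test it.

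**Figure D1:**
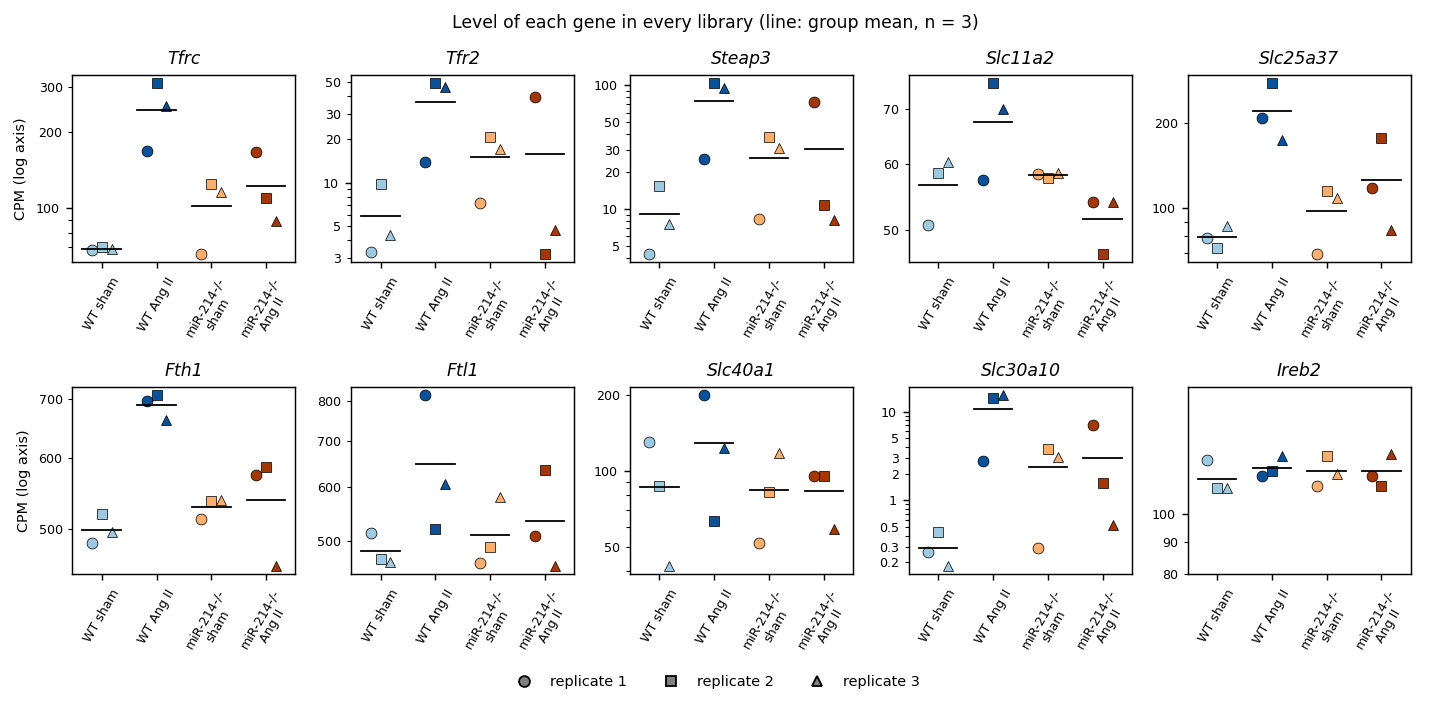
Level of each of the 10 genes in CPM (log axis) in the 12 libraries, grouped by genotype and treatment, with a marker shape for each replicate number and a line at the group mean (n = 3). WT Ang II libraries stand above WT sham for Tfrc (168 to 311 against 68.1 to 70.1 CPM), while Ireb2 lies between 110 and 125 CPM in every library.

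Tfrc (ENSMUSG00000022797, chr16:32608920-32632794, plus strand) encodes transferrin receptor 1, the main receptor for transferrin-bound iron. In WT sham its level was 68.1, 70.1 and 68.8 CPM, and in WT Ang II 168, 311 and 253 CPM. In miR-214-/- sham it was 66.2, 124 and 116 CPM, and in miR-214-/- Ang II 167, 110 and 89.3 CPM. The WT groups did not overlap, whereas the miR-214-/- groups did, with sham replicate 1 the lowest of its group and Ang II replicate 1 the highest of its own. In WT the log2 fold change was 1.84 (SE 0.20, edgeR adjusted p = 0.00303). In miR-214-/- it was 0.27 (SE 0.30, edgeR adjusted p = 0.731).

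Tfr2 (ENSMUSG00000029716, chr5:137569840-137587481, plus strand), the second transferrin receptor, is known as an iron sensor of liver and red-cell precursors. Its level was 3.31, 9.83 and 4.32 CPM in WT sham and 13.8, 48.9 and 46.1 CPM in WT Ang II. In the deleted mice it was 7.22, 20.6 and 17.1 CPM after sham and 39.0, 3.22 and 4.71 CPM after Ang II. The WT groups were apart, with WT Ang II replicate 1 nearest to sham. Among the miR-214-/- Ang II libraries, replicate 1 was the highest of both miR-214-/- groups and the other two were the lowest. Ang II against sham gave a log2 fold change of 2.65 in WT (SE 0.58, edgeR adjusted p = 0.0245) and 0.08 in miR-214-/- (SE 0.92, edgeR adjusted p = 0.981).

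When each of the 6 WT libraries was left out in turn, the call of Tfr2 held 2 times. It was lost without WT sham replicate 1, WT sham replicate 3, WT Ang II replicate 2 or WT Ang II replicate 3, with adjusted p from 0.0554 to 0.0872 in edgeR. It was also lost in a single fit over all 4 groups (edgeR adjusted p = 0.0602). Without the named libraries, in the order given, 3.39%, 3.6%, 6.15% and 3.61% of all genes were called, against 7.3% with all 6.

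Steap3 (ENSMUSG00000026389, chr1:120190757-120272705, minus strand) reduces the ferric iron released in endosomes. WT sham libraries held 4.36, 15.3 and 7.51 CPM of it and WT Ang II libraries 25.2, 104 and 94.2 CPM. miR-214-/- sham libraries held 8.26, 38.4 and 30.9 CPM and miR-214-/- Ang II libraries 72.9, 10.7 and 8.16 CPM. The libraries were ordered much as for Tfr2, with no overlap between the WT groups and with miR-214-/- Ang II replicate 1 above all miR-214-/- sham libraries. For Steap3 the log2 fold change was 3.05 in WT (SE 0.64, edgeR adjusted p = 0.021) and 0.26 in miR-214-/- (SE 0.91, edgeR adjusted p = 0.927). The WT call held in 3 of the 6 fits without 1 library and was lost without WT sham replicate 1, WT sham replicate 3 or WT Ang II replicate 3 (edgeR adjusted p from 0.069 to 0.0803). The fits that lost it called 3.39%, 3.6% and 3.61% of all genes, in that order, against 7.3% with all 6 libraries.

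Slc11a2 (ENSMUSG00000023030, chr15:100387898-100425072, minus strand) encodes DMT1, the carrier of reduced iron and of manganese out of the endosome. Its level was 50.7, 58.6 and 60.5 CPM in WT sham and 57.5, 75.3 and 70.0 CPM in WT Ang II, and these groups overlapped. In miR-214-/- it was 58.4, 57.8 and 58.6 CPM after sham and 54.0, 46.8 and 54.0 CPM after Ang II. There all 3 Ang II libraries lay below all 3 sham libraries, which held for 10.5% of all genes tested. The response was a log2 fold change of 0.28 in WT (SE 0.11, edgeR adjusted p = 0.129) and -0.17 in miR-214-/- (SE 0.08, edgeR adjusted p = 0.443), and neither passed the test.

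Slc25a37 (ENSMUSG00000034248, chr14:69241848-69285112, minus strand) encodes mitoferrin 1, which carries iron into mitochondria. It was at 78.9, 72.6 and 86.5 CPM in WT sham and at 208, 275 and 174 CPM in WT Ang II, with a wide gap between the groups. It was at 69.5, 115 and 109 CPM in miR-214-/- sham and at 118, 176 and 84.0 CPM in miR-214-/- Ang II. Here miR-214-/- Ang II replicate 2, and not replicate 1, was the highest of its group. The log2 fold change was 1.48 in WT (SE 0.16, edgeR adjusted p = 0.0027) and 0.37 in miR-214-/- (SE 0.29, edgeR adjusted p = 0.625).

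Fth1 (ENSMUSG00000024661, chr19:9980598-9985098, plus strand) encodes the ferritin heavy chain, which oxidises iron for storage. Its level was 482, 519 and 495 CPM in WT sham, and in WT Ang II it was 695, 706 and 662 CPM. The lowest Ang II library stood above the highest sham library, yet the log2 fold change of 0.49 (SE 0.07, edgeR adjusted p = 0.00675) stayed below the fold threshold of a call. In miR-214-/- mice Fth1 was at 512, 537 and 538 CPM after sham and at 575, 587 and 454 CPM after Ang II, with a log2 fold change of 0.03 (SE 0.13, edgeR adjusted p = 0.935).

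Ftl1 (ENSMUSG00000050708, chr7:45457944-45459884, minus strand), the ferritin light chain, was at 515, 471 and 467 CPM in WT sham and at 814, 521 and 606 CPM in WT Ang II. WT Ang II replicate 2 lay just above the highest sham library. Values in miR-214-/- mice were 465, 491 and 579 CPM after sham and 509, 635 and 461 CPM after Ang II, and the groups overlapped. The log2 fold change was 0.44 in WT (SE 0.17, edgeR adjusted p = 0.104) and 0.07 in miR-214-/- (SE 0.15, edgeR adjusted p = 0.871). Ferritin counts are uncertain, since near-identical pseudogene copies (2 named for Ftl1 in the annotation) can take or lose uniquely mapped reads. Ftl1, Slc11a2, Slc25a37 and Slc30a10 each also overlap at least 1 other annotated gene, and the strand setting of the counting was not given in the sources used here.

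Slc40a1 (ENSMUSG00000025993, chr1:45908068-45926523, minus strand) encodes ferroportin, the iron exporter, which is known to be abundant in splenic macrophages. Its level was 130, 87.4 and 41.9 CPM in WT sham and 200, 63.1 and 123 CPM in WT Ang II. It was 51.8, 82.6 and 118 CPM in miR-214-/- sham and 95.4, 95.8 and 59.0 CPM in miR-214-/- Ang II. The 4 groups overlapped one another, WT sham replicate 3 being the lowest library and WT Ang II replicate 1 the highest. The log2 fold change was 0.60 in WT (SE 0.51, edgeR adjusted p = 0.435) and -0.01 in miR-214-/- (SE 0.31, edgeR adjusted p = 0.996). Markers of splenic macrophages (12 of 12 detected, none called) summed to 559, 478 and 201 CPM in WT sham and to 1370, 197 and 453 CPM in WT Ang II, highest and lowest in the same WT Ang II libraries as Slc40a1. Their part in the Slc40a1 values was not tested.

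Slc30a10 (ENSMUSG00000026614, chr1:185454848-185468762, plus strand) belongs to a family of zinc transporters and is known to export manganese. It had the widest range of the 10 genes as the ratio of the highest to the lowest library. WT sham libraries held 6, 11 and 4 counts, or 0.261, 0.436 and 0.182 CPM, and WT Ang II libraries 79, 405 and 361 counts, or 2.77, 14.4 and 15.3 CPM. miR-214-/- sham libraries held 0.291, 3.81 and 3.04 CPM and miR-214-/- Ang II libraries 7.02, 1.55 and 0.524 CPM. The WT groups stood far apart, although the sham level rested on few counts. In miR-214-/- mice the sham replicates 2 and 3 exceeded every WT sham library, and sham replicate 1 was within the WT sham range. The log2 fold change was 5.18 in WT (SE 0.76, edgeR adjusted p = 0.00733) and 0.37 in miR-214-/- (SE 1.05, edgeR adjusted p = 0.906).

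Ireb2 (ENSMUSG00000032293, chr9:54863789-54912530, plus strand) encodes iron regulatory protein 2, which binds the iron-responsive elements shown above. Its level was 122, 110 and 110 CPM in WT sham and 115, 117 and 124 CPM in WT Ang II, and between 111 and 125 CPM in the 6 miR-214-/- libraries. No group stood apart. The log2 fold change was 0.07 in WT (95% interval -0.10 to 0.25, edgeR adjusted p = 0.5) and 0.01 in miR-214-/- (95% interval -0.17 to 0.18, edgeR adjusted p = 0.985).

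To compare levels between genes, CPM were divided by the exonic length of each gene in kilobases. In WT sham the ferritin chains were the highest of the 10, with 361 ± 19.8 CPM per kilobase for Ftl1 and 144 ± 5.36 for Fth1 (SD, n = 3). Next were Slc25a37 at 13.2 ± 1.16, Ireb2 at 12.1 ± 0.72, Tfrc at 11.2 ± 0.16, Slc40a1 at 9.62 ± 4.92 and Slc11a2 at 8.91 ± 0.82 CPM per kilobase. Slc25a37 and Ireb2 overlapped over the 3 libraries, as did Slc40a1 with each of its neighbours, while Ireb2 stayed above Tfrc. Steap3 (1.59 ± 0.99), Tfr2 (1.34 ± 0.81) and Slc30a10 (0.0502 ± 0.0223) were the lowest, and Steap3 and Tfr2 overlapped. In WT Ang II Tfrc, at 39.5 ± 11.7 CPM per kilobase, came next after the ferritin chains, followed by Slc25a37 at 36.3 ± 8.51, and their ranges overlapped. With the longest transcript as the length, 4 of the 10 genes changed place in the WT sham order.

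In miR-214-/- mice none of the 10 genes was called after Ang II, and 0 of them had an unadjusted p under 0.05, against 12.2% of all genes. Of all 15937 genes tested by edgeR, 0 were called (percent called 0). DESeq2 called 51 of its own 12965 (0.393%), none of them among the 10. The log2 fold changes of the 10 ran from -0.17 to 0.37 with a median of 0.08. The intervals were wide for the genes with the largest WT changes, from -2.10 to 2.85 for Slc30a10 and from -1.88 to 2.40 for Steap3, so that changes of several fold in either direction lay within them. Leaving out 1 library turned the direction. Without miR-214-/- Ang II replicate 1 the log2 fold change was -1.92 for Tfr2, -1.45 for Steap3, -1.17 for Slc30a10 and -0.03 for Tfrc, and none of these was called.

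**Figure D2:**
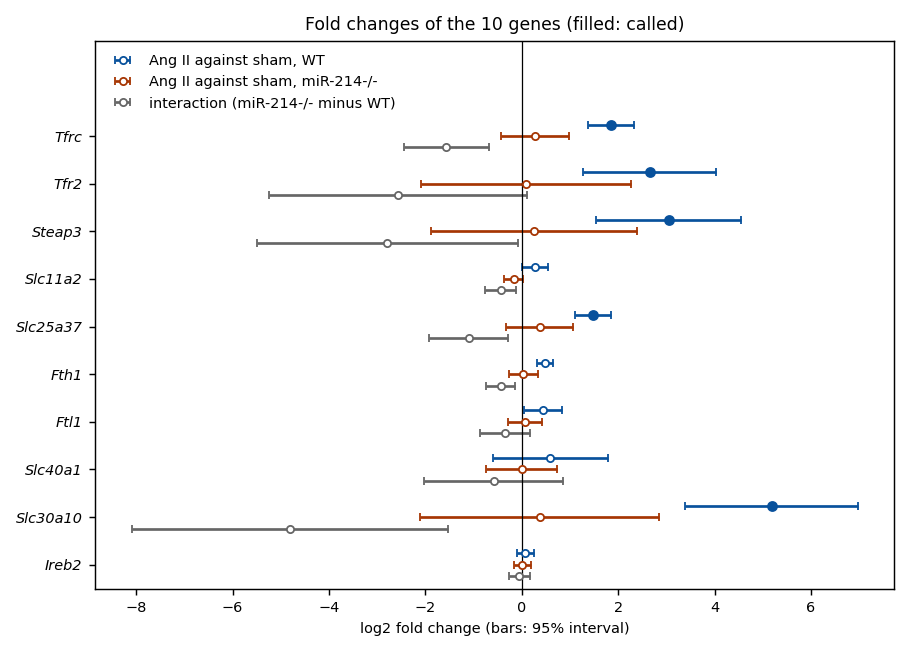
Log2 fold changes of the 10 genes in edgeR with 95% intervals, for Ang II against sham in WT, the same in miR-214-/-, and the interaction (miR-214-/- minus WT), with filled points for called genes. Filled points appear in WT for Tfrc, Tfr2, Steap3, Slc25a37 and Slc30a10, and all 10 interaction values lie below 0.

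The difference between the genotypes in the response to Ang II was tested by the interaction over all 12 libraries. In edgeR 0 of the 10 genes passed an adjusted p of 0.05, and 1 of all 16770 genes did (0.00596%). At an unadjusted p under 0.05 there were 6 of the 10, Tfrc, Steap3, Slc11a2, Slc25a37, Fth1 and Slc30a10, against 14.8% of all genes. The interaction value was negative, meaning a smaller log2 fold change in miR-214-/-, in all 10, with a median of -0.84. For Tfrc it was -1.56 (SE 0.40, edgeR adjusted p = 0.213), for Fth1 -0.44 (SE 0.14, edgeR adjusted p = 0.233) and for Slc30a10 -4.81 (95% interval -8.10 to -1.52, edgeR adjusted p = 0.228). For Tfr2 it was -2.57 (SE 1.22, edgeR adjusted p = 0.355) and for Steap3 -2.79 (SE 1.24, edgeR adjusted p = 0.328), and of the 10 genes Slc30a10 had both the largest value and the widest interval.

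This outcome changed with the tool and with 1 library. DESeq2 called 3 of the 10, Tfrc (adjusted p = 0.00567), Fth1 (adjusted p = 0.0395) and Slc30a10 (adjusted p = 0.0496), among 3.22% of all genes. With miR-214-/- Ang II replicate 1 left out, 4 of the 10 were called by edgeR, Tfrc, Tfr2, Steap3 and Slc30a10 (adjusted p from 0.0234 to 0.0362), among 5.35% of all genes. The interaction values were then -1.86 for Tfrc, -4.55 for Tfr2, -4.48 for Steap3 and -6.33 for Slc30a10.

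Between genotypes at sham, none of the 10 genes was called, against 0.0189% of the 15913 genes tested. Slc30a10 differed most, with a log2 fold change of 2.98 in miR-214-/- against WT (SE 0.87, edgeR adjusted p = 0.701). Tfr2 (1.36, SE 0.49), Steap3 (1.51, SE 0.61) and Tfrc (0.56, SE 0.21) also had an unadjusted p under 0.05, making 4 of 10 against 6.67% of all genes. For these 4 genes miR-214-/- sham replicate 1 lay within or below the range of WT sham, and replicates 2 and 3 lay above all WT sham libraries. Slc30a10 was called by DESeq2 (adjusted p = 0.0162), which called 45 of its own 15625 genes (0.288%). Slc30a10 was also called in edgeR without miR-214-/- sham replicate 1 (adjusted p = 0.0352), among 30 of 16279 genes (0.184%).

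Between genotypes after Ang II, none of the 10 genes was called either, nor were any of the 16215 tested (percent called 0), whereas DESeq2 called 21 of its own 14729 (0.143%) and none of the 10. All 10 log2 fold changes were below 0, from -1.82 to -0.02. Tfrc (-0.99, SE 0.30), Slc11a2 (-0.39, SE 0.12), Slc25a37 (-0.79, SE 0.28) and Fth1 (-0.35, SE 0.13) had an unadjusted p under 0.05, against 8.56% of all genes. In Tfrc, Slc11a2 and Fth1 all miR-214-/- Ang II libraries lay below all WT Ang II libraries, which held for 5.94% of all genes. The 5 comparisons share libraries with one another, so their values for a gene are not independent.

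Across the 12 libraries the 10 genes varied along more than 1 line. Pearson's r of log2 CPM was 0.97 between Tfr2 and Steap3, 0.95 between Steap3 and Slc30a10 and 0.96 between Tfrc and Slc30a10. It was 0.92 between Slc25a37 and Fth1 and 0.80 between Ftl1 and Slc40a1. By contrast it was 0.17 between Tfr2 and Ftl1 and at most 0.33 between Ireb2 and any other of the 10. These are descriptions over 12 libraries that share group, spleen and preparation.

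**Figure D3:**
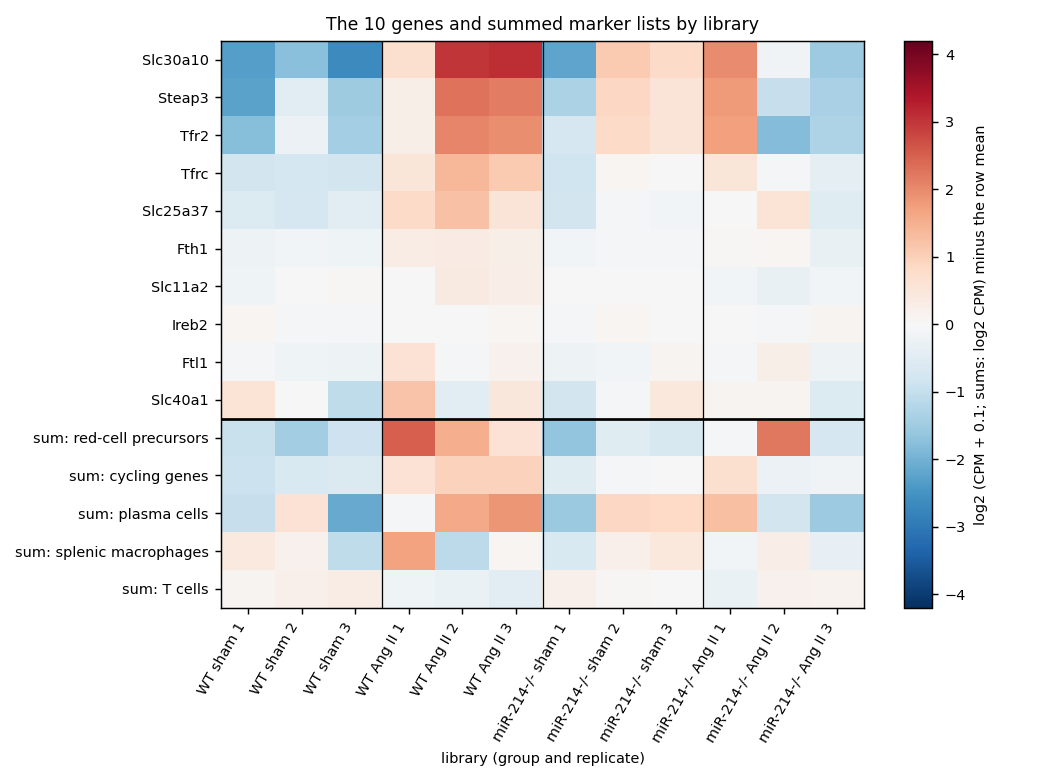
Heat map of the 10 genes (log2 of CPM + 0.1) and of 5 summed lists (log2 CPM) in the 12 libraries, each row centred on its own mean, with red above and blue below it. Slc30a10, Steap3 and Tfr2 are reddest in WT Ang II replicates 2 and 3 and miR-214-/- Ang II replicate 1, while the summed red-cell precursor markers are reddest in WT Ang II replicate 1 (5970 CPM, of which the 4 globins gave 4750 CPM) and miR-214-/- Ang II replicate 2 (4800 CPM, of which the globins gave 4040 CPM).

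Among 16770 genes, those most like each of the 10 in this measure were found over the same 12 libraries. For Tfrc they included Crat (r = 0.992) and Cit (r = 0.987). For Steap3 they were Col5a1, Slc38a5 and Tal1, a transcription factor of red-cell precursors (all r = 0.994), and for Tfr2 they were Gstm5, 1700006J14Rik and Atp1b2 (r from 0.989 to 0.99). For Slc30a10 they were Slc6a20a (r = 0.992), Aldh1a1 (r = 0.99) and Nxpe2 (r = 0.987). For Slc25a37 they were Fn3k (r = 0.972), Dhrs11 (r = 0.971) and Fech (r = 0.969), the last enzyme of haem synthesis. Fth1 was nearest to Rab43 (r = 0.975), Pdzk1ip1 (r = 0.961) and Hagh (r = 0.947). Ftl1 was nearest to Slc15a3 (r = 0.955), Ctsb (r = 0.944), a lysosomal protease, and Klra2 (r = 0.941). Slc40a1 was nearest to Hcar2 (r = 0.968), Cadm1 (r = 0.965) and Pparg (r = 0.951). Slc11a2 had Nelfa (r = 0.944), Desi1 (r = 0.942) and Plagl2 (r = 0.94), and Ireb2 had Lrrc39 (r = 0.863), Fmr1 (r = 0.831) and Gm26768 (r = 0.829).

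Markers of some other cell types and of cycling were higher in WT Ang II along with the iron genes. Of 16 red-cell precursor markers measured (17 listed), 11 were called higher in WT Ang II, against 7.01% of all genes tested. The summed level of the 16 markers went from 377 to 574 CPM in WT sham to 1600 to 5970 CPM in WT Ang II. In miR-214-/- it was 330 to 733 CPM after sham and 639 to 4800 CPM after Ang II, and none of these markers was at 0 in any library. Without the 4 globins the sum was 88, 121 and 156 CPM in WT sham and 1220, 1720 and 1150 CPM in WT Ang II. In miR-214-/- the sum without globins was 95.3, 458 and 389 CPM after sham and 738, 765 and 186 CPM after Ang II. Hbb-bs, an adult beta globin, was at 2140, 572 and 190 CPM in WT Ang II and at 113, 1980 and 228 CPM in miR-214-/- Ang II. Klf1, a red-cell transcription factor, was at 47, 172 and 137 CPM and at 97.5, 21.3 and 11.6 CPM in the same libraries. These 2 markers were singled out after their values were seen. Of the 16 markers, 11 were highest in WT Ang II replicate 2, where Tfr2, Steap3 and Slc30a10 were also high, and the 4 globins and Alas2 were highest in WT Ang II replicate 1.

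Of 18 cycling genes, 16 were called higher in WT Ang II, against 7.01% of all genes tested. The sum of the 18 was 883 to 1090 CPM in WT sham and 2530 to 3250 CPM in WT Ang II. In miR-214-/- their sum was 1180 to 1630 CPM after sham and 1400 to 2630 CPM after Ang II, highest in Ang II replicate 1, where Tfrc was also highest. All 12 markers of neutrophils and their precursors were called higher in WT (214 to 271 CPM in sham, 1190 to 3520 CPM in Ang II). So were all 6 of basophils and mast cells (49.3 to 87.9 against 190 to 433 CPM) and 2 of 7 of megakaryocytes (21.4 to 38.3 against 53.1 to 65.1 CPM). The share over all genes for these lists too was 7.01%. In miR-214-/- the neutrophil sum was 258 to 1030 CPM after sham and 660 to 3160 CPM after Ang II. None of the 4 plasma cell markers was called. Their sum, 434, 1370 and 1640 CPM in WT Ang II and 1080, 264 and 157 CPM in miR-214-/- Ang II, had the same high libraries as Tfr2. Most of this sum was Jchain, at 377, 1290 and 1540 CPM in WT Ang II and 1000, 211 and 111 CPM in miR-214-/- Ang II. No B cell marker (0 of 7, median log2 fold change -0.32) and no NK cell marker (0 of 4 tested, median -0.73) was called in WT. The part of any of these lists in the values of the 10 genes was not tested.

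Another 65 genes of iron and metal handling were examined by role, of which 52 were tested in WT. After Ang II 7 were called higher and 0 lower, against 7.01% and 0.294% of all genes. At an adjusted p under 0.05 alone 13 were higher, against 11.7% of all genes. The median log2 fold change of the 52 was 0.23. In miR-214-/- mice, between the genotypes and in the interaction, 0 of the 65 were called.

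**Figure D4:**
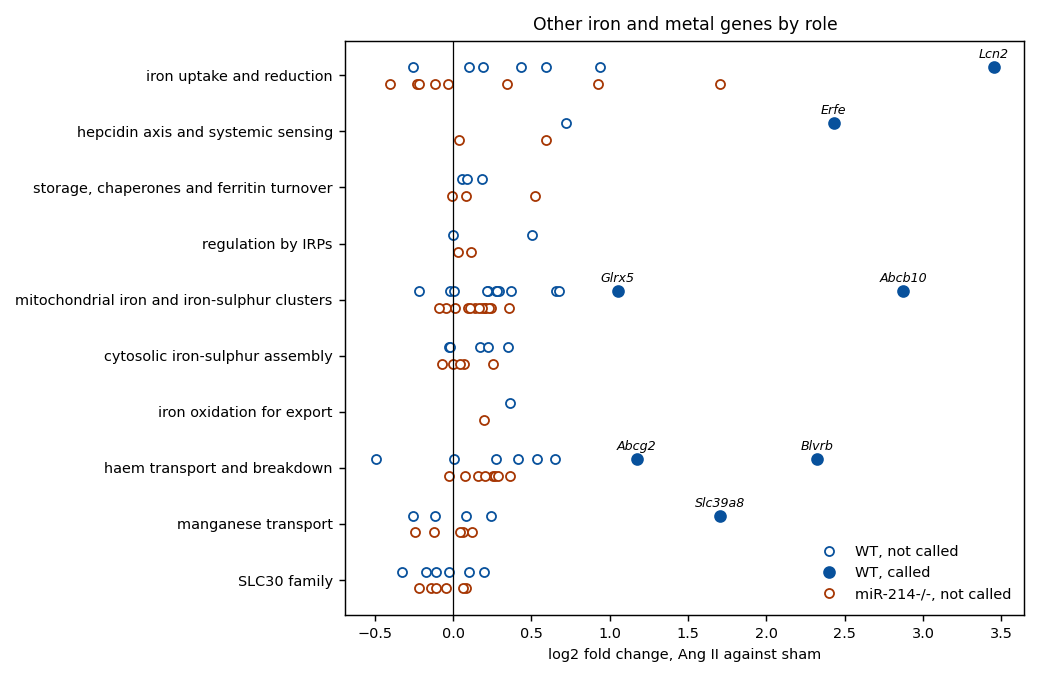
Log2 fold changes for Ang II against sham of the other iron and metal genes that were tested, by role, in WT and in miR-214-/-. The 7 filled and named points are those called in WT, from Glrx5 at 1.05 to Lcn2 at 3.45, and no gene was called in miR-214-/-.

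In iron uptake, 1 of 7 tested genes was called, Lcn2, which encodes a protein that captures bacterial iron carriers and is abundant in neutrophils. It was at 11.8, 9.16 and 9.24 CPM in WT sham and at 202, 51.8 and 69.7 CPM in WT Ang II (log2 fold change 3.45, SE 0.54, edgeR adjusted p = 0.00845). In miR-214-/- Lcn2 was at 28.4, 6.27 and 46.4 CPM after sham and at 36.5, 204 and 24.4 CPM after Ang II. These groups overlapped, and the log2 fold change was 1.705 (SE 0.95, edgeR adjusted p = 0.501). Of 2 genes of the hepcidin axis, Erfe, the hormone by which red-cell precursors lower hepcidin, was called at a low level, 0.278 to 0.683 CPM in WT sham and 1.23 to 3.49 CPM in WT Ang II (log2 fold change 2.43, SE 0.50, edgeR adjusted p = 0.0197).

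Of 13 tested genes of mitochondrial iron and iron-sulphur clusters, 2 were called. Abcb10, a mitochondrial transporter that binds mitoferrin 1, was at 11.7, 16.2 and 15.9 CPM in WT sham and at 54, 149 and 115 CPM in WT Ang II (log2 fold change 2.88, SE 0.36, edgeR adjusted p = 0.00461). Glrx5, which passes on iron-sulphur clusters, was just past the fold threshold (log2 fold change 1.05, SE 0.17, edgeR adjusted p = 0.01). Of 8 tested genes of haem transport and breakdown, 2 were called, the biliverdin reductase Blvrb (log2 fold change 2.32, SE 0.30, edgeR adjusted p = 0.00493) and the porphyrin exporter Abcg2 (log2 fold change 1.17, SE 0.19, edgeR adjusted p = 0.00928).

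Of 5 tested genes of manganese transport, the importer Slc39a8 was called, at 5.58, 7.22 and 6.83 CPM in WT sham and 9.23, 26.4 and 27.5 CPM in WT Ang II (log2 fold change 1.71, SE 0.40, edgeR adjusted p = 0.0287). The calls of Erfe and Slc39a8 each held 1 time when the 6 libraries were left out in turn, being lost without any library but WT Ang II replicate 1, and that of Glrx5 held in 4, being lost without WT sham replicate 1 or WT Ang II replicate 2. No call was made in storage and chaperones (0 of 3), regulation by iron regulatory proteins (0 of 2), cytosolic iron-sulphur assembly (0 of 5), iron oxidation (0 of 1) or the other zinc transporters of the SLC30 family (0 of 6). The most abundant gene of each of these groups had a log2 fold change of 0.06 for the iron chaperone Pcbp2, -0.002 for Fbxl5, which targets iron regulatory protein 2 for degradation, 0.23 for Ciapin1, 0.36 for the ferroxidase Cp and 0.10 for Slc30a9. The other tested gene of regulation, Aco1, which encodes iron regulatory protein 1 and was named after its values were seen, was higher in WT after Ang II below the fold threshold (log2 fold change 0.50, SE 0.11, edgeR adjusted p = 0.0223).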

How the data were processed

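The authors sequenced poly(A)-selected RNA of splenic T cells from 12 mice (1 library per mouse), trimmed reads with Trimmomatic, aligned them to GRCm38 with STAR and counted unique exonic reads with featureCounts (Subread 1.5.2, per the submitters' processing notes). The annotation release was not given in the sources used here. The deposited values were raw counts, and 48970 of 49315 identifiers were matched to symbols. No 2 replicate libraries were copies.

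Counts were filtered (filterByExpr), scaled (TMM) and tested in edgeR 4.0.16 under R 4.3.3 with Benjamini-Hochberg adjustment. The interaction was called at an adjusted p under 0.05 alone. For correlations, a prior count of 2 was added before taking log2 CPM. The scripts were tested on simulated data. DESeq2 1.42.0, the study's own tool, other scalings, filters and fits, a replicate block and leaving out each library were alternatives.

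The members and lists were chosen with earlier results of these data known. Besides the 10 genes, the text names other metal genes that were called, otherwise the most abundant tested gene of a role without a call, and the 3 genes most correlated with each of the 10, of which 1 is not reported here. The limit for a count of 0 covers counting error only. P-values set a difference between groups against the spread between mice within groups of 3. This spread was estimated over all groups in the fit, with information from other genes. Figures were drawn with matplotlib 3.10.9.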

Additional observations from a re-analysis of the deposited data

How the results depend on the processing

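In WT, 3 to 5 of the 10 genes were called when 1 library was left out, and Tfrc, Slc25a37 and Slc30a10 were called in all 6 such fits. The count was 3 without WT sham replicate 1, WT sham replicate 3 or WT Ang II replicate 3. Of all genes, 3.39%, 3.6% and 3.61% were called in those fits, in that order, against 7.3% with all libraries. Slc30a10 was removed by a filter of at least 10 counts in every library, which tests fewer genes. Of the other metal genes 4 to 7 were called, and 13 without the fold threshold, where 11.7% of all genes were higher. In miR-214-/- against WT at sham, the count of the 10 genes was 1 in DESeq2 and 0 to 1 without 1 library, and that of the other metal genes 0 to 1. In the interaction it was 3 in DESeq2 and 0 to 4 without 1 library, and 0 to 4 for the other metal genes. The 4 came without miR-214-/- Ang II replicate 1. The cause was not tested.

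Values that changed sign were all of genes not called. For Ang II in miR-214-/-, leaving out 1 library gave log2 fold changes from -0.034 to 0.44 for Tfrc, -1.92 to 0.55 for Tfr2, -1.45 to 0.70 for Steap3, -0.039 to 0.14 for Fth1, -0.076 to 0.17 for Ftl1, -0.27 to 0.32 for Slc40a1, -1.17 to 0.87 for Slc30a10 and -0.05 to 0.045 for Ireb2. Ireb2 was also -0.003 with library size scaling, -0.001 with at least 10 counts in every library and 0 in a single fit over all groups. For miR-214-/- against WT at sham, leaving out 1 library gave -0.03 to 0.09 for Slc11a2, -0.016 to 0.14 for Ftl1, -0.38 to 0.38 for Slc40a1 and -0.006 to 0.087 for Ireb2. After Ang II it gave -0.061 to 0.03 for Ireb2.

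No pairing of mice by replicate number was seen. Deviations of same-numbered libraries of different groups were correlated from -0.56 to 0.34 (7 of 18 pairs over 0.1). Differently numbered libraries ranged from -0.36 to 0.48 (13 of 36 pairs over 0.1). Such correlations over 3 libraries a group cannot exclude a pairing. With a replicate block, 5 of the 10 genes were called in WT and 0 in the other comparisons. For Ang II in miR-214-/- the block gave -0.93 for Tfr2, -0.53 for Steap3, 0.042 for Slc40a1 and -0.25 for Slc30a10, and at sham between genotypes it gave 0.012 for Slc40a1. With 3 mice a group and wide intervals in miR-214-/-, a missing call does not show that a gene stayed level. Low counts limit Slc30a10 at sham.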
